A study of Rattus norvegicus with 8 samples.

Results

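The transcripts described here encode 10 proteins of the synaptic vesicle cycle: Sv2a, Sv2b, Syt1, Syt4, Syn1, Syn2, Syp, Cplx1, Cplx2 and Rab3a. The genes were chosen with earlier results of these data known. Their probe sets were then taken by gene symbol, without use of measured values, as all that the platform's annotation assigns to exactly 1 of these names. The rule found 18 probe sets for 10 genes, of 14217 genes with a single symbol on the array. A probe set is a group of short oligonucleotides read out as 1 value. Sv2b and Syn2 each had 3 probe sets, Cplx1, Rab3a, Syn1 and Syt4 each had 2, and Sv2a, Syt1, Syp and Cplx2 each had 1.

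Frontal cortex was dissected from males of an outbred albino rat strain, Sprague-Dawley, that weighed about 200 g at the start. The 2 groups were olanzapine, an antipsychotic that blocks dopamine and serotonin receptors, injected intraperitoneally at 2 mg/kg/day, and saline, both for 21 days. Each group held 20 rats, of which 4 were measured, 1 rat per array, on Affymetrix arrays. The sources used here do not give age at dissection or the time since the last injection. The saline animals carry the numbers 14, 15, 17 and 19, and the olanzapine animals 9, 14, 18 and 19. The comparison asks which of these transcripts differ in frontal cortex after repeated olanzapine.

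Synaptic vesicles store neurotransmitter in the axon terminal and release it when calcium enters. The Sv2 proteins are vesicle membrane glycoproteins that keep vesicles competent for release, Sv2a being the binding site of the antiepileptic drug levetiracetam. Synaptophysin (Syp) is an abundant vesicle membrane protein, and the synapsins (Syn1, Syn2) tether vesicles into a reserve pool. Rab3a is a small GTPase that guides vesicles to release sites. Synaptotagmin 1 (Syt1) is the calcium sensor of fast release, synaptotagmin 4 (Syt4) is a relative that lacks normal calcium binding in a key domain, and the complexins (Cplx1, Cplx2) clamp and promote fusion by binding the assembled SNARE complex.

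In their brightest probe sets, Sv2b and Sv2a are the pair whose groups did not overlap, and in opposite directions. Of all tested probe sets, 2.07% did not overlap on the lower side and 2.40% on the higher side. In the dimmer Sv2b probe sets the groups overlapped. The sequence around the starts of Sv2b and Sv2a is shown. Syn1 is added as the member whose start region holds a full cyclic AMP response element. Each sequence runs 5′ to 3′ on the gene's strand from 250 bases before to 50 bases after the annotated start, from RefSeq on the GRCr8 build: Sv2b at chr1:138562209-138562508 on the minus strand, Sv2a at chr2:186430113-186430412 on the plus strand, and Syn1 at chrX:3725495-3725794 on the plus strand. Capitals mark matches on either strand to the cyclic AMP response element TGACGTCA, the GC box GGGCGG, the TATA box TATAAA and the E-box CACGTG.
Sv2b: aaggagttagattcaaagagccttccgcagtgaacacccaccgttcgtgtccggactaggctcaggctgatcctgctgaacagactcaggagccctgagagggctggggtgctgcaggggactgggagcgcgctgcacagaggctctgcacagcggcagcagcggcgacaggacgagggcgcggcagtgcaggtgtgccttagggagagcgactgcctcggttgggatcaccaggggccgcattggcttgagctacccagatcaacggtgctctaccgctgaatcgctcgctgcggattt
Sv2a: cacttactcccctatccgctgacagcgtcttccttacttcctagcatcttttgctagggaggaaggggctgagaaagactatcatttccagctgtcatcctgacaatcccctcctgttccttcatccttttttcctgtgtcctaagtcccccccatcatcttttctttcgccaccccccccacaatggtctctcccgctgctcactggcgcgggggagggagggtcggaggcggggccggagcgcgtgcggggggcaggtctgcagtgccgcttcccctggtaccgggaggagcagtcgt
Syn1: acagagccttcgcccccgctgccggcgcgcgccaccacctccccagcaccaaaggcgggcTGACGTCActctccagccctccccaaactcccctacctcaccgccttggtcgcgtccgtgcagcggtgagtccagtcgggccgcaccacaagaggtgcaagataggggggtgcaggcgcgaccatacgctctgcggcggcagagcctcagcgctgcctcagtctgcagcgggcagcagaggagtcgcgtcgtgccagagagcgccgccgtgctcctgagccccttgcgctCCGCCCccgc
All 10 members had a start region in the table. A GC box was found in 7 of the 10, against 33.1% of 33469 start regions of the same length. The cyclic AMP response element was in 1 of 10, against 1.83% of all start regions, while the TATA box (14.2% of all) and the E-box (6.42% of all) were in 0 of 10. None of these 4 motifs occurred in the Sv2b, Sv2a or Syt4 windows. The GC content of the windows was 62.7% for Sv2b, 60% for Sv2a and 71% for Syn1, with a median of 51.7% over all start regions. These matches describe the letters, and no binding was measured.

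None of the members differed between olanzapine and saline after adjustment. The lowest adjusted p belonged to Sv2b, whose brightest probe set was at 17830 ± 1679 in saline and 13965 ± 1094 in olanzapine (intensity, mean ± SD, n = 4 each). Sv2a differed the other way, at 563 ± 49.2 in saline and 690 ± 56.2 in olanzapine. Cplx2 was at 778 ± 152 in saline and 583 ± 160 in olanzapine. The remaining genes, Syp, Syn1, Syn2, Rab3a, Syt4 and Cplx1, differed by 0.22 or less on the log2 scale in the probe set with the highest mean.

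The test was limma on log2(intensity + 63.5), over the 18625 probe sets that a filter on dim values left, with Benjamini-Hochberg adjustment over all of them. Differences below are on this log2 scale, olanzapine minus saline, and they understate the change of dim genes. The filter left 16 of the 18 member probe sets and 9 of the 10 genes, the only Syt1 probe set being too dim. At an adjusted p of 0.05, limma called 0 of 16 member probe sets and 0 of all 18625, a share of 0%. At an unadjusted p of 0.05 it called 3 member probe sets lower, against 3.73% of all tested, and 1 higher, against 4.59%. The 4 olanzapine values all lay below the 4 saline values in 1 member probe set (2.07% of all tested) and above them in 1 (2.40%). Of the 9 tested genes, 8 were on the lower side in the probe set with the highest mean, where 44.0% of all tested probe sets were, with a median difference of -0.11 against 0.027 for all.

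That median moved with the normalization. After median centring it was -0.17, with 8 of the 9 genes again on the lower side. After quantile normalization, which gives every array the same distribution of values, 3 of the 9 genes were on the lower side and the median was 0.014. After cyclic loess 5 of 9 were, with a median of -0.017. As deposited but with 1 array left out, the median came to -0.23 when saline 19 was dropped, to -0.22 when olanzapine 18 was, and to -0.065 when saline 15 was. The 5 members among the brightest 5% of tested probe sets were Sv2b, Rab3a, Syt4, Syp and Cplx1. Over those brightest 932 probe sets the median difference was -0.15 as deposited, with 88.7% on the lower side, and 0.0020 after quantile normalization.

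**Figure D1:**
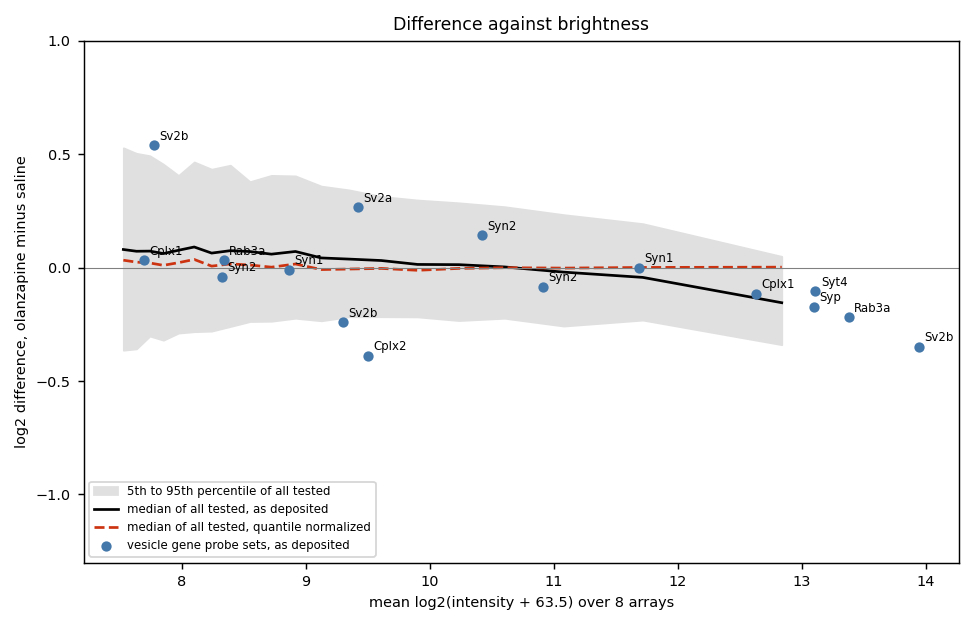
Log2 difference (olanzapine minus saline) against mean log2(intensity + 63.5) over 8 arrays. Points are the 16 tested vesicle gene probe sets, the black line is the median of 20 equal bins of all tested probe sets, the grey band runs from their 5th to 95th percentile, and the red dashed line is the median after quantile normalization. The black line falls to -0.15 in the brightest bin, where Sv2b, Rab3a, Syt4, Syp and Cplx1 lie, and the last bin is drawn at its mean.

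At the bright end the arrays differed, in part by group. The 98th percentile of intensity lay between 6174 and 6287 for saline 14, 15 and 17, at 5618 for saline 19, and between 5474 and 5735 for the 4 olanzapine arrays. The 9 probe sets of spike-in controls read added sequences that do not come from the rat. Their mean log2 intensity was 13.16 to 13.33 in the same 3 saline arrays, 12.85 in saline 19 and 12.31 to 12.94 in olanzapine. All arrays had a trimmed mean of 500.15 to 500.17. Saline 15 stood apart, with a median correlation with the other arrays of 0.953 against 0.965 to 0.970. Of 9 neuron markers, 9 were tested, and their summed intensity was 62670 to 74505 in saline and 59357 to 63590 in olanzapine, with 6 on the lower side. As deposited their median was -0.18 on the log2 scale, and quantile normalization moved it to 0.023, with 3 on the lower side. Excitatory cortical markers summed to 9820 to 11846 in saline and 9843 to 11099 in olanzapine. Of the 6 tested, 2 were on the lower side and 4 on the higher. Their median was 0.084 as deposited and 0.061 after quantile normalization. GABAergic interneuron markers, with 8 of 8 tested, had 4 on each side, with medians of 0.025 and 0.063. Astrocyte markers, with 7 of 7 tested and on the lower side, summed to 47851 to 56083 and 43003 to 48620. Their median went from -0.19 to -0.076, with 6 of 7 still lower. Meningeal markers, with 9 of 10 tested and all 9 on the higher side, summed to 2681 to 3462 in saline and 3683 to 9117 in olanzapine, with a median of 0.57 as deposited and 0.53 after quantile normalization. Choroid plexus markers were too dim in 4 of 4 genes. The part of these values in those of the vesicle genes was not tested, and in tissue RNA fewer cells of a type and less RNA per cell cannot be told apart.

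Among the Sv2 glycoproteins, Sv2b was brightest in 1369628_at, a probe set above 99.91% of the array. It read 19049, 18220, 18687 and 15364 in saline 14, 15, 17 and 19, and 15295, 13133, 14424 and 13009 in olanzapine 9, 14, 18 and 19. The groups did not overlap, but saline 19 lay next to olanzapine 9, and the other 3 saline arrays were well above both. The difference was -0.35 (SE 0.09, 95% interval -0.53 to -0.17, limma adjusted p = 0.317). It was -0.048 after quantile normalization and -0.13 after cyclic loess. Without saline 19 limma called this probe set, at -0.42 (adjusted p = 0.0194). In that setting 107 probe sets were called, 0.574% of those tested, and 92 of them were among the brightest 5%.

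The 2 dimmer Sv2b probe sets went separate ways. In 1369627_at the intensities were 685, 406, 704 and 750 in saline 14, 15, 17 and 19, and 409, 516, 571 and 583 in olanzapine 9, 14, 18 and 19. Saline 15 and olanzapine 9 were low and nearly equal, while the other 3 saline arrays exceeded every olanzapine array. The difference was -0.24 (SE 0.18) as deposited and -0.30 after quantile normalization, and limma gave an adjusted p of 0.774 as deposited. With 1 array left out it ran from -0.42 without saline 15 to -0.14 without olanzapine 9. In 1375142_at the intensities were 39.8, 146, 139 and 185 in the saline arrays and 276, 193, 202 and 147 in the olanzapine arrays. This probe set was higher in olanzapine on average, by 0.54 (SE 0.26, limma adjusted p = 0.625), and by 0.27 without saline 14, its lowest array. The 3 probe sets of Sv2b thus gave 2 negative differences and 1 positive one, and which of them reads the main transcript was not tested.

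Sv2a, the paralog found at nearly all synapses, was measured by 1368682_at. It read 590, 497, 557 and 609 in saline 14, 15, 17 and 19, and 633, 681, 678 and 767 in olanzapine 9, 14, 18 and 19. Every olanzapine array was above every saline array, with saline 19 and olanzapine 9 again the nearest pair. The difference was 0.27 (SE 0.12, 95% interval 0.0055 to 0.52, limma adjusted p = 0.588). It was 0.22 after both quantile normalization and cyclic loess, and 0.21 to 0.30 with 1 array left out.

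**Figure D2:**
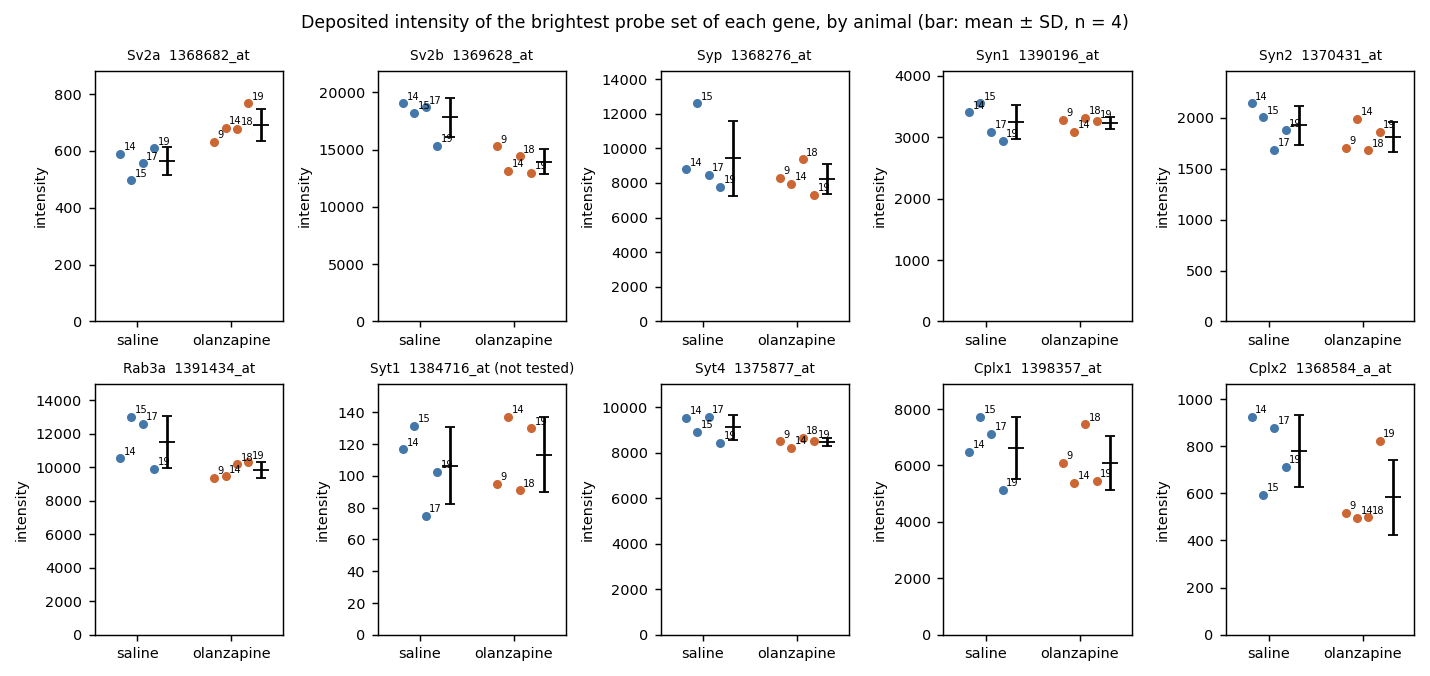
Deposited intensity (linear axis from 0) of the brightest probe set of each of the 10 genes in 4 saline (blue) and 4 olanzapine (orange) rats, labelled by animal number. Black bars give mean ± SD. Sv2a and Sv2b are the 2 genes whose groups do not overlap, Sv2a at 497 to 609 against 633 to 767 and Sv2b at 15364 to 19049 against 13009 to 15295.

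Syp, the vesicle membrane marker protein gene, read 8797, 12602, 8472 and 7797 in saline 14, 15, 17 and 19, and 8297, 7956, 9361 and 7326 in olanzapine 9, 14, 18 and 19. Saline 15 was high and the other 7 arrays overlapped. The difference was -0.17 (SE 0.13, limma adjusted p = 0.776), -0.025 without saline 15 and 0.014 after quantile normalization.

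The synapsin Syn1, which holds vesicles to the actin cytoskeleton, read 3406, 3550, 3084 and 2940 in saline and 3279, 3089, 3315 and 3258 in olanzapine in 1390196_at, arrays in the order above. The olanzapine values lay inside the saline range. The difference was -0.00084 (SE 0.09, 95% interval -0.19 to 0.19), and the sign turned under several settings. Its dimmer probe set 1369251_a_at, at 372 to 433 in saline and 374 to 424 in olanzapine, differed by -0.0086 (SE 0.13). Both Syn1 probe sets thus differed by less than their errors, the wider interval running from -0.29 to 0.27.

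For Syn2, the second synapsin, the brightest probe set 1370431_at read 2142, 2004, 1689 and 1877 in saline and 1707, 1992, 1683 and 1864 in olanzapine. The groups overlapped, with a difference of -0.085 (SE 0.10, 95% interval -0.31 to 0.14). Leaving out saline 14 gave -0.034, leaving out saline 17 gave -0.14, and leaving out olanzapine 14 gave -0.13. In 1382850_at saline 15 was low at 863 beside 1302 to 1545 in the other saline arrays, and the olanzapine arrays lay close together at 1362 to 1396. That probe set differed by 0.14 (SE 0.14), and by -0.021 without saline 15. The third, 1369482_a_at, was at 175 to 342 in saline and 198 to 278 in olanzapine, a difference of -0.041 (SE 0.19), with saline 15 lowest again.

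Rab3a, the GTPase of vesicle docking, read 10546, 13023, 12612 and 9894 in saline and 9387, 9456, 10187 and 10299 in olanzapine in 1391434_at. Saline 15 and 17 were high, while saline 14 and 19 lay at or near the olanzapine range. The difference was -0.22 (SE 0.09, 95% interval -0.42 to -0.021, limma adjusted p = 0.540), and 0.011 after quantile normalization. The dim probe set 1369816_at was at 230 to 295 in saline and 184 to 371 in olanzapine, where olanzapine 14 was the lowest and olanzapine 18 the highest of all 8. It differed by 0.034 (SE 0.19).

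**Figure D3:**
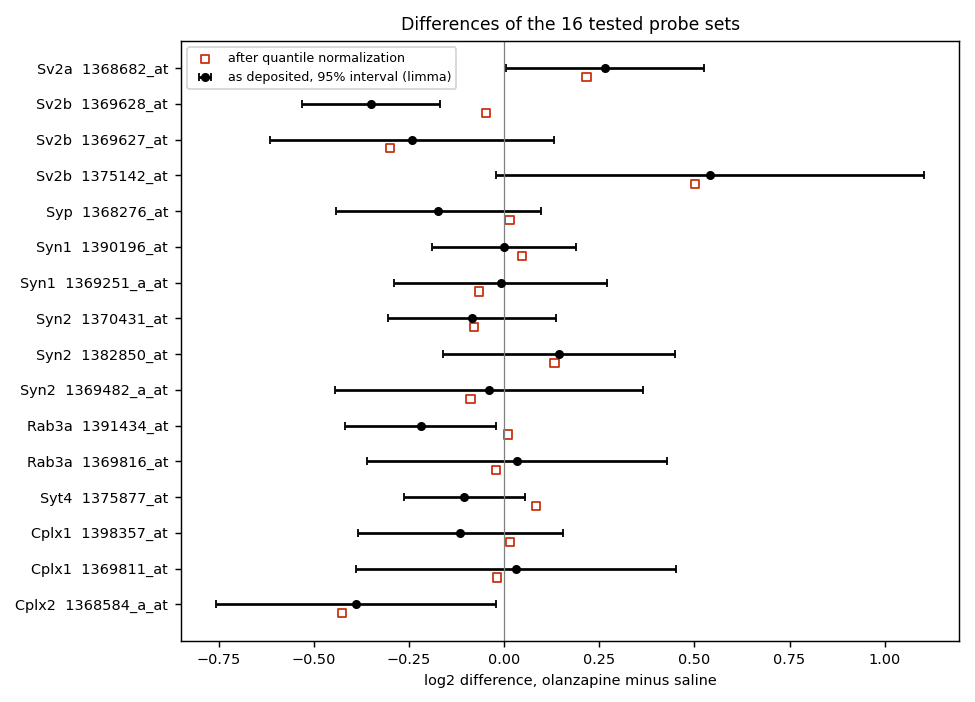
Log2 difference (olanzapine minus saline) of each of the 16 tested probe sets. Black points and bars are the deposited values with limma's 95% interval, and red squares are the differences after quantile normalization. The intervals of Sv2a 1368682_at, Sv2b 1369628_at, Rab3a 1391434_at and Cplx2 1368584_a_at leave out 0 before adjustment, and the squares of Sv2b 1369628_at and Rab3a lie near 0 at -0.048 and 0.011.

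Of the synaptotagmins, Syt4 read 9530, 8924, 9587 and 8433 in saline and 8510, 8210, 8655 and 8505 in olanzapine in 1375877_at. Saline 19 lay among the olanzapine arrays and the other 3 saline arrays above them. The difference was -0.10 (SE 0.07, 95% interval -0.26 to 0.054, limma adjusted p = 0.767), and 0.085 after quantile normalization. The second Syt4 probe set, 1387662_at, was not tested because it was dim. It read 7.74, 75.1, 39.5 and 105 in saline and 8.88, 4.11, 7.07 and 22.2 in olanzapine, below the added value of 63.5 in 6 of 8 arrays, so its difference of -0.63 moved to -1.26 with an added value of 16. Syt1 was read by a single dim probe set, 1384716_at, at 117, 132, 74.8 and 103 in saline and 95.1, 137, 91.1 and 130 in olanzapine. These Syt1 values overlapped fully and differed by 0.059, with no test, by -0.036 without saline 17 and by -0.0053 without olanzapine 14.

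Cplx2, the complexin found mainly in excitatory terminals, read 925, 594, 878 and 713 in saline and 517, 496, 498 and 823 in olanzapine in 1368584_a_at. Olanzapine 9, 14 and 18 were below every saline array, while olanzapine 19 was inside the saline range. The difference was -0.39 (SE 0.17, 95% interval -0.76 to -0.022, limma adjusted p = 0.562). It was -0.43 after both quantile normalization and cyclic loess. With 1 array left out it ran from -0.55 without olanzapine 19 to -0.31 without saline 14. Of the 16 tested probe sets this one had the most negative difference, and it kept its direction and size under both normalizations.

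Cplx1, the complexin found mainly in inhibitory terminals of cortex, read 6488, 7730, 7129 and 5141 in saline and 6092, 5382, 7463 and 5448 in olanzapine in 1398357_at. The groups overlapped, with a difference of -0.11 (SE 0.13, 95% interval -0.38 to 0.16), which was -0.036 without saline 15, -0.23 without saline 19 and 0.017 after quantile normalization. Its dim probe set 1369811_at was at 119 to 170 in saline and 121 to 189 in olanzapine, a difference of 0.032 (SE 0.20).

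Animals deviated differently from gene to gene. Over the 16 tested probe sets saline 15 was the highest array in 4, the brightest ones of Syp, Rab3a, Cplx1 and Syn1, and the lowest in 4, those of Sv2a, Sv2b 1369627_at and the 2 dimmer ones of Syn2. Saline 14 was highest in 4 and lowest in 2, and saline 17 highest in 3 and lowest in 0. Of the olanzapine arrays, animal 14 was highest in 0 and lowest in 3. The median deviation over the 9 tested genes was 0.073, 0.13, 0.13 and -0.058 in saline 14, 15, 17 and 19, and -0.046, -0.13, -0.021 and -0.042 in olanzapine 9, 14, 18 and 19. Saline 19 thus sat with the olanzapine arrays. After quantile normalization the same medians ran from -0.040 in saline 19 to 0.084 in saline 15, with the olanzapine arrays between 0.0085 and 0.044.

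**Figure D4:**
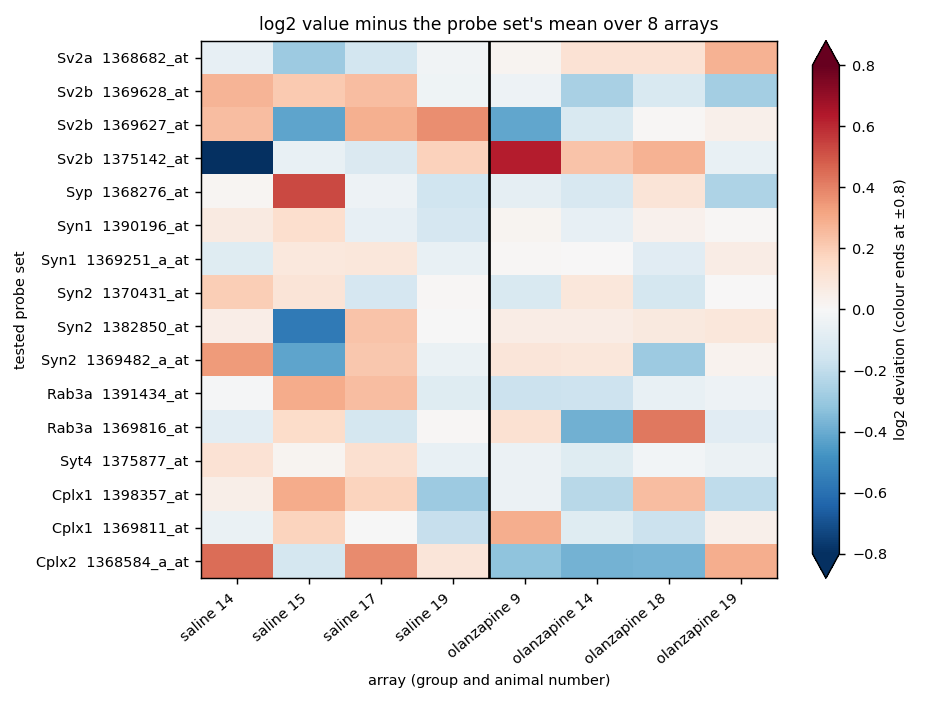
Log2(intensity + 63.5) of each tested probe set on each array, minus its mean over the 8 arrays, from blue (below) to red (above), with colours ending at ±0.8. The saline arrays are left of the black line. Saline 15 is red for Syp and Rab3a and blue for the dimmer Syn2 probe sets, and the Cplx2 row is blue in olanzapine 9, 14 and 18 and red in olanzapine 19.

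Within an array a common scaling factor cancels from the ratio of 2 probe sets. For this reason 4 pairs of related genes were compared as log2 ratios of their brightest probe sets. A shift that depends on brightness does not cancel. Sv2b lay at percentile 99.91 of brightness and Sv2a at 78.41. As deposited, the median difference of all tested probe sets was -0.15 in the brightest of 20 bins. It was 0.038 in the bin with a mean log2 value of 9.35, near that of Sv2a. Only the change of a ratio between groups is read, since levels of different probe sets are not comparable. The Sv2b to Sv2a ratio was 4.87, 5.03, 4.92 and 4.52 in saline 14, 15, 17 and 19, and 4.46, 4.15, 4.29 and 3.98 in olanzapine 9, 14, 18 and 19. All 4 olanzapine ratios were below the saline ones, a change of -0.61. The exact two-sided permutation p was 0.0286, the smallest this design allows, and 0.114 adjusted over the 4 pairs. Both probe sets already separated the groups, in opposite directions, so this order of the ratios and this p were fixed in advance. They add nothing to the results of the single genes. The change was -0.26 after quantile normalization and -0.36 after cyclic loess. With the mean of each gene's tested probe sets in place of the brightest, the change was -0.28 (exact permutation p = 0.0857), and with 1 array left out it ran from -0.72 to -0.53.

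The other 3 ratios overlapped between groups. The Cplx2 to Cplx1 ratio changed by -0.27 (saline SD 0.39, olanzapine SD 0.46, exact permutation p = 0.400). With quantile normalization as with cyclic loess its change was -0.44 (exact permutation p = 0.229 and 0.257). The Syn2 to Syn1 ratio changed by -0.084 (SD 0.11 and 0.15, exact permutation p = 0.400), by -0.13 after quantile normalization and by -0.13 after cyclic loess. The Syt4 to Syt1 ratio, which rests on the untested Syt1 probe set, changed by -0.16 (SD 0.26 and 0.22, exact permutation p = 0.429). Each of these 3 had an adjusted p of 0.429 over the 4 pairs. With 1 array left out they ran from -0.48 to -0.12 for the complexins, from -0.15 to -0.039 for the synapsins and from -0.24 to -0.043 for the synaptotagmins.

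**Figure D5:**
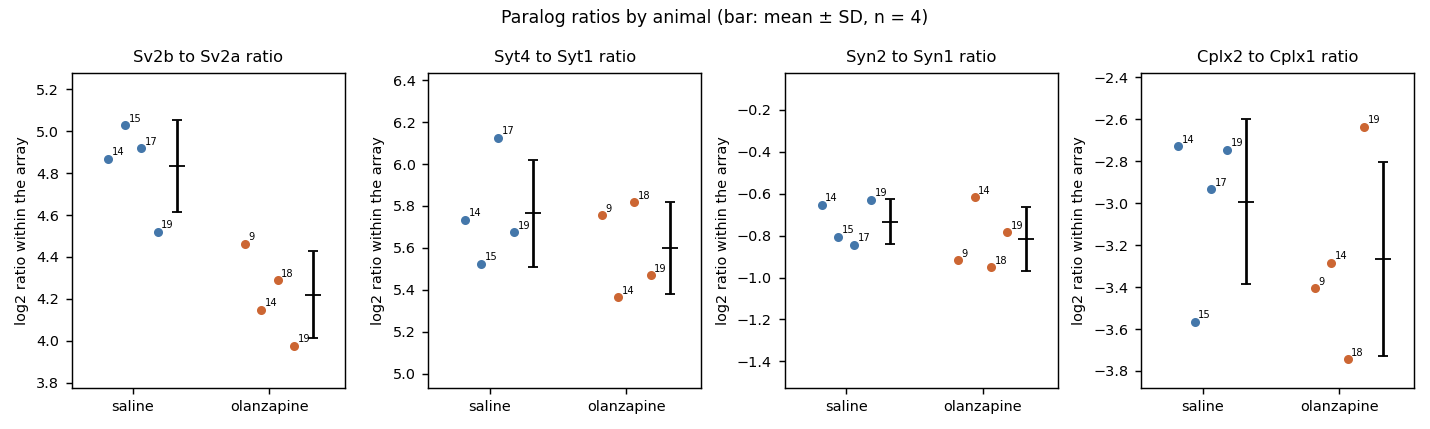
Within-array log2 ratio of the brightest probe sets of 4 gene pairs in 4 saline (blue) and 4 olanzapine (orange) rats, labelled by animal number, with mean ± SD as black bars. All vertical axes span the same range and do not start at 0. The Sv2b to Sv2a ratios lie at 4.52 to 5.03 in saline and 3.98 to 4.46 in olanzapine, and the other 3 pairs overlap.

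The transcripts most like Sv2b 1369628_at were sought among 10114 other genes by the root mean square difference of log2 values, each centred on its own mean, over the 8 arrays. The nearest were Myh1 at 0.026, Glul at 0.047, Gosr1 at 0.050, Nptn at 0.053 and Sptbn1 at 0.053. All 5 lay at percentiles 99.52 to 99.97 of brightness, beside 99.91 for Sv2b. Glul encodes the glutamine synthetase of astrocytes, Nptn a synaptic adhesion protein and Sptbn1 a spectrin of the membrane skeleton. Their differences were -0.39 to -0.30 as deposited and -0.18 to -0.0090 after quantile normalization. The choice by likeness to Sv2b fixed the deposited differences of these 5, which are given as a description.

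Other genes of the vesicle cycle and of release were read from 4 lists with 70 genes, of which 62 were on the array and 45 were tested. Limma called 0 of the 45. At an unadjusted p of 0.05 there were 4 of 45 lower, against 3.73% of all tested probe sets, and 4 higher, against 4.59%, and 24 of 45 were on the lower side, against 44.0%. The median difference was -0.034, and -0.013 after quantile normalization.

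Among 19 other vesicle membrane and vesicle-associated genes, 11 were on the lower side. Bsg, which encodes the membrane glycoprotein basigin, differed by 0.50 (SE 0.13), from 1924 ± 141 in saline to 2794 ± 618 in olanzapine with no overlap. Slc17a6, the vesicular glutamate transporter typical of subcortical neurons, differed by 0.53 (SE 0.23), and Atp6v0d1, a proton pump subunit gene, by -0.24 (SE 0.12). Of the other synaptotagmins and calcium sensors only 5 were tested, with Syt3 at 0.20 (SE 0.13), Syt5 at 0.20 (SE 0.13) and Syt11 at -0.34 (SE 0.29). None of these had an adjusted p under 0.05.

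Among 13 other complexin and Rab3 cycle genes, 7 were on the lower side. Rab27a, a secretory Rab gene, differed by -0.42 (SE 0.17), Rab3c by -0.54 (SE 0.22) and Rab27b by -0.19 (SE 0.14). Rab3c, a close paralog of Rab3a, was at 213 ± 22.5 in saline and 133 ± 57.0 in olanzapine. Its groups overlapped (limma adjusted p = 0.533), and its difference was -0.59 after quantile normalization. Of 8 genes of the SNARE fusion core, 4 were on each side. Snap25 differed by -0.35 (SE 0.08) as deposited and -0.028 after quantile normalization, Nsf by -0.29 (SE 0.12) and -0.23, and Stx1a by 0.38 (SE 0.17) and 0.33. Without saline 19 limma called Snap25 as well, at -0.42 (adjusted p = 0.0182), the only one of the listed genes other than Sv2b.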

How the data were processed

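Gene expression was measured in 8 rats on 8 Affymetrix arrays. The deposited values are linear intensities, 31099 probe sets per array of which 57 are controls. Their trimmed means, with 2% taken off each end, were nearly equal across arrays, so the deposited scaling was kept. How the authors corrected background, summarised probes and called detection is not given in the sources used here. Gene names came from the platform annotation, which is old. For genes other than the members, symbols were brought up to date by Entrez identifier through a RefSeq table of GRCr8, and 20826 probe sets had 1 symbol. The number of arrays limits the precision.

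Values were put on a log2 scale after adding 63.5, the 25th percentile of all values. Probe sets whose mean was not above the 40th percentile were left out. The groups were compared in limma 3.58.1 under R 4.3.3 (lmFit and eBayes with a mean-variance trend, two-sided, Benjamini-Hochberg at 0.05). Paralog ratios were compared by exact permutation over 70 assignments. The code was tested on simulated data.

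Alternatives were quantile normalization, cyclic loess, median centring, an added value of 16, no filter, array weights, a block on shared animal numbers, the mean over a gene's probe sets, and each array left out. Named in the text are all members, the 3 genes with the smallest unadjusted p of each further list, and the 5 genes most like the member with the smallest p. The members and lists were chosen with earlier results of these data known.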

Additional observations from a re-analysis of the deposited data

Results flagged for a closer look

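Of 44 groups of 4 values (18 probe sets and 4 ratios in each group), 2 held an animal far from the other 3. That is near the share that chance gives, about 1 in 20. Olanzapine 19 was high in Cplx2 1368584_a_at, at 823 beside 496 to 517 in the other olanzapine arrays, a gap of 0.918 of the group's log2 range. Saline 15 was low in Sv2b 1369627_at, at 406 beside 685 to 750 in the other saline arrays, a gap of 0.847 of the range. The difference of Cplx2 was -0.55 without olanzapine 19 and that of the Sv2b probe set was -0.42 without saline 15, in place of -0.39 and -0.24. Other arrays left out made both smaller, down to -0.31 for Cplx2 without saline 14 and -0.14 for the Sv2b probe set without olanzapine 9.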

How the results depend on the processing

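Directions turned in 33 of 268 values recomputed for single probe sets, over 11 of the 18, and limma called 1 of the 268, Sv2b 1369628_at without saline 19. After quantile normalization the median over the genes was 0.014, the Syt4 to Syt1 ratio changed by 0.075, and Syp differed by 0.014, Cplx1 by 0.017 and, in 1369811_at, by -0.018, Rab3a by 0.011 and, in 1369816_at, by -0.021, Syt4 by 0.085 and Syn1 by 0.046. After cyclic loess the median was -0.017, the Syt4 to Syt1 ratio changed by 0.052, and Cplx1 differed by 0.0096 and -0.034 in the same 2 probe sets, Rab3a 1369816_at by -0.032, Syt4 by 0.052, Syt1 by -0.00033 and Syn1 by 0.062. Median centring gave -0.020 for Cplx1 1369811_at and -0.018 for Rab3a 1369816_at, and array weights 0.0036 for Syn1 1390196_at. With the mean over a gene's probe sets the median was -0.041, the Sv2b to Sv2a ratio changed by -0.28 and the Syn2 to Syn1 ratio by 0.011. The cause of these changes was not tested.

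With 1 array left out, limma called from 0 to 107 probe sets in all, 107 without saline 19 and 1 without olanzapine 9. Calls ran from 0 to 1 in the members and from 0 to 1 in the listed genes, each single call being without saline 19. The median ran from -0.23 without saline 19 to -0.065 without saline 15. Of the probe sets whose sign turned with 1 array left out, Syt1 1384716_at ran from -0.036 to 0.13, Syn1 1369251_a_at ran from -0.043 to 0.021, Syn1 1390196_at from -0.046 to 0.043, Syn2 1369482_a_at from -0.19 to 0.066, Syn2 1382850_at from -0.021 to 0.24, Cplx1 1369811_at from -0.058 to 0.096 and Rab3a 1369816_at from -0.10 to 0.17.

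Animal numbers 14 and 19 occur in both groups but name different rats. Their deviations correlated at 0.075 and 0.11, and with a replicate block on them limma again called 0 probe sets.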
